A study of Mus musculus with 18 samples.

Results

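The genes described here are 9 members of the coagulation and plasminogen systems that act at the surface of the vessel wall: F3, Tfpi, Tfpi2, Thbd, Procr, Plat, Plau, Plaur and Serpine2. They were chosen by name, and each was matched to 1 Ensembl identifier of the deposited table of 54281 genes through the mouse GENCODE annotation. RNA of the descending aorta, with intima, media and adventitia together, was sequenced from 18 male mice on the C57BL/6 background in 3 groups of 6. HGPS mice are a knock-in model of Hutchinson-Gilford progeria syndrome (genotype LMNAG609G in the labels) that carries the altered allele on both copies of Lmna, which at its own locus makes progerin, a truncated Lamin A, in all cells that express Lmna. They were 64 to 75 days old. The WT mice carried no engineered allele and were 2 mo old (5 of 62 days and 1 of 95 days) or 24 mo old (609 to 762 days). No group received a treatment, and there was no HGPS group of 24 mo. Counts per gene do not show which Lmna allele a transcript came from.

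Clotting outside the blood stream starts when tissue factor, the product of F3, meets factor VII of the plasma, and it is held back by tissue factor pathway inhibitor on the endothelium and by thrombomodulin and the endothelial protein C receptor, which together turn thrombin toward the activation of protein C. Fibrin is removed by plasmin, which is cut from plasminogen by the tissue activator (Plat) or, at cells that carry its receptor Plaur, by the urokinase activator (Plau), and serpins block both activators. In arteries tissue factor is known to lie mainly in the adventitia and media, whereas thrombomodulin and the protein C receptor line the lumen.

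The totals per mouse were 17838351 to 30844775 estimated counts in HGPS, 12413229 to 21016752 in 2-mo WT and 13622602 to 19871697 in 24-mo WT. Levels are in CPM, the count of a gene scaled to a common library total with TMM factors, and comparisons used edgeR's quasi-likelihood test across the 15210 genes that reached 10 counts in 6 or more mice, with Benjamini-Hochberg adjusted p-values and a call at an adjusted p under 0.05. All 9 genes passed the count filter. The aortas carried the marker genes of their cell types, but the make-up of the RNA differed between groups. The summed level of 8 smooth muscle markers was 21504 to 30221 CPM in HGPS and 32760 to 41755 CPM in 2-mo WT, and 6 of the 8 were lower in HGPS. All 8 macrophage markers were higher in HGPS (648 to 985 CPM summed, against 356 to 543 in 2-mo WT), as were 7 of 7 brown fat markers (455 to 1665 against 107.5 to 590.9 CPM) and 5 of 6 white fat markers (810 to 2972 against 234 to 1013 CPM). Of 8 fibroblast markers, 3 were lower in HGPS than in 2-mo WT (6132 to 10376 against 8783 to 11351 CPM summed) and 5 were lower in 24-mo than in 2-mo WT (5641 to 8101 CPM). Of all genes tested, 22% were called higher and 21.2% lower in HGPS than in 2-mo WT. Between the WT ages 5.38% were lower at 24 mo. In bulk RNA fewer cells of a type cannot be told apart from less RNA per cell. The part of these shifts in marker RNA in the results on the 9 genes was not tested.

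In HGPS aortas F3 was less than 0.5 times as abundant as in 2-mo WT, Tfpi was modestly lower, and Plat, Plau and Serpine2 were higher. That made 3 of the 9 genes higher and 2 lower in HGPS than in 2-mo WT, where 22% of all genes tested were called higher and 21.2% lower. In edgeR, F3 alone also passed the study's cut-offs of 1.5-fold and adjusted p under 0.001, which 9.50% of all genes did. In DESeq2, the study's tool, F3 and Plau passed them, as did 1144 genes higher and 779 lower of the 15210 tested. Of the 9 genes, 3 (F3, Plat and Plau) had no overlap between the groups, against 21.9% of all genes. Between 24-mo and 2-mo WT, Plat was called higher and Tfpi2 lower, none passed the study's cut-offs and none was free of overlap. The shares over all genes were 6.29% higher, 5.38% lower, 2.00% past the study's cut-offs and 6.28% without overlap. Between HGPS and 24-mo WT, 3 genes were higher (Serpine2, Tfpi2 and Procr) and 2 lower (F3 and Tfpi), beside 23.8% and 23.6% of all genes. Of these, F3 and Tfpi2 passed the study's cut-offs and were free of overlap, as did 12.1% and were 22.2% of all genes. Tfpi2 had under 10 counts in every 24-mo WT mouse and was tested only through the 2-mo groups, where it is high. The median log2 fold change over the 9 genes was 0.15, -0.08 and 0.20 in the 3 comparisons, and over all genes tested it was 0.0026, 0.0083 and -0.0105. The comparisons share groups of mice and are not independent of each other.

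**Figure D1:**
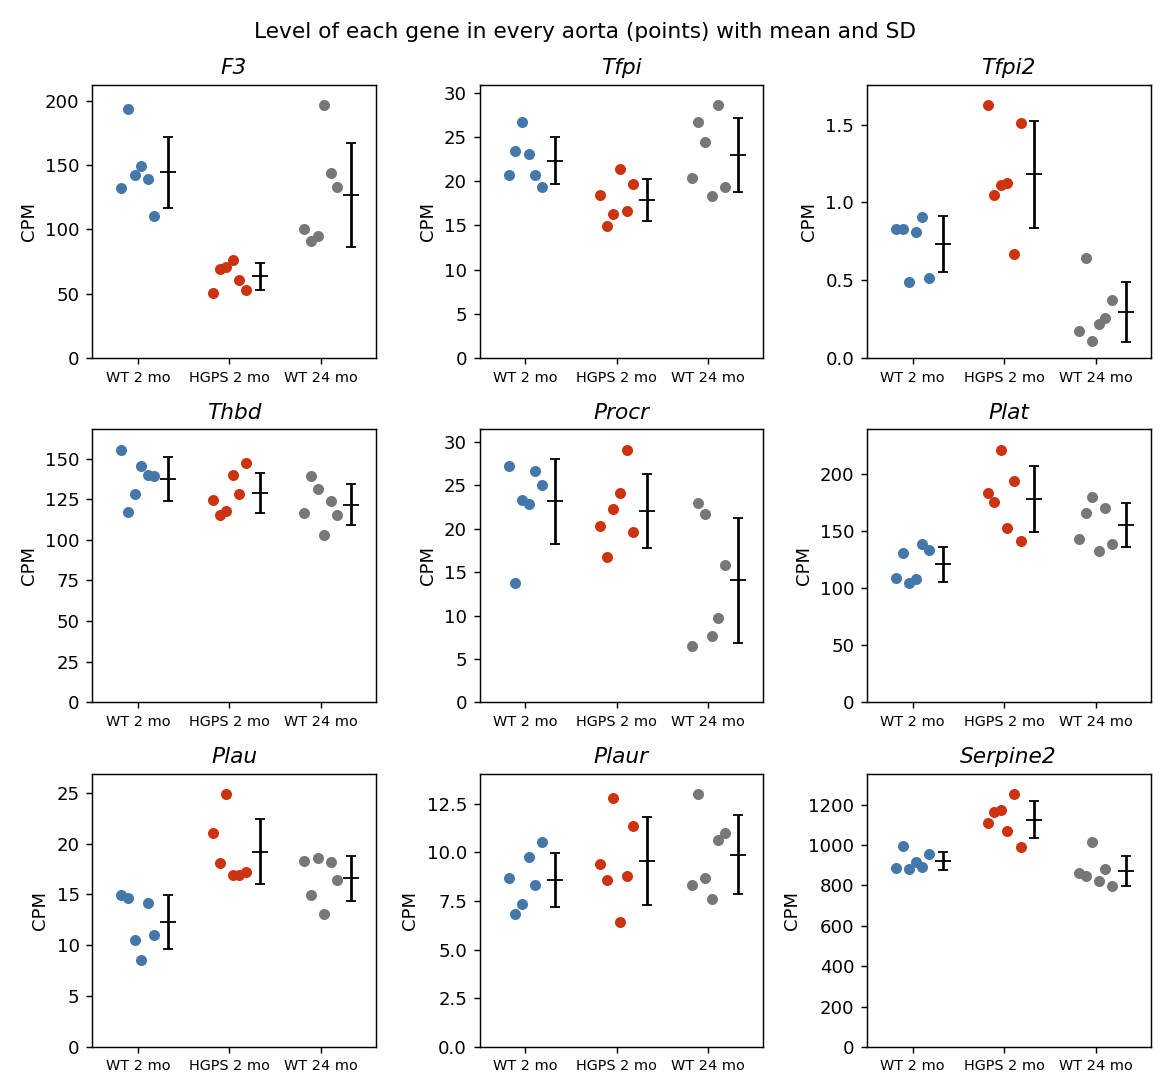
CPM (vertical axes, linear, from 0) of the 9 genes in each of 18 aortas, with 1 point per mouse and the mean and SD of 6 mice beside each group. F3 lies between 50.8 and 76.4 CPM in HGPS and at 90.7 CPM or above in every WT mouse, and Procr spreads from 6.45 to 22.96 CPM in 24-mo WT.

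Compared per length of exon, the 9 genes spanned a wide range of levels. Serpine2 had the highest mean in every group (111 CPM per kb in 2-mo WT, 136 in HGPS and 105 in 24-mo WT) and Tfpi2 the lowest (0.418, 0.677 and 0.169). In 2-mo WT the order below Serpine2 was F3 (57.2 CPM per kb), Thbd (36.9), Plat (19.4), Procr (11.4), Plau (5.20), Tfpi (4.09) and Plaur (3.28). The ranges of Plau (3.60 to 6.30) and Tfpi (3.54 to 4.88) overlapped, as did those of Tfpi and Plaur (2.603 to 4.03). The order of these neighbours was not tested within mice. In HGPS, F3 (25.1 CPM per kb) came below Thbd (34.6) and Plat (28.6), although its range (20.1 to 30.2) overlapped that of Plat (22.7 to 35.5).

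F3 encodes tissue factor, the receptor that starts the extrinsic pathway, and lies on the plus strand of chromosome 3 (GRCm38, 121723537 to 121735048). Its level was lowest, median and highest at 111, 140 and 194 CPM in 2-mo WT, at 50.8, 64.7 and 76.4 CPM in HGPS, and at 90.7, 117 and 197 CPM in 24-mo WT. All 6 HGPS mice were below every WT mouse of either age, whereas the WT groups overlapped. In edgeR's test F3 fell by 1.19 on the log2 scale in HGPS against 2-mo WT (SE 0.17, adjusted p = 2.95e-05, 0.439 times the WT level, 6 of 6 mice below all WT mice). Against 24-mo WT the log2 difference was -0.997 (SE 0.17, adjusted p = 0.000108). Between the WT ages it was -0.19, with a 95% interval of -0.55 to 0.17 and an adjusted p of 0.538. Leaving out any 1 mouse kept the difference from 2-mo WT between -1.26 and -1.09. With the smooth muscle marker score as a covariate, a score whose ranges did not overlap between HGPS and 2-mo WT, the estimate was -1.46 with an adjusted p of 0.101, and against 24-mo WT it was -1.28 with an adjusted p of 0.0929. In that fit none of the 9 genes was called between HGPS and 2-mo WT, and of all genes tested 98 were called higher and 37 lower.

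The sequence before the start site of F3 is shown with that of Tfpi, since the initiator and its inhibitor were both lower in HGPS than in WT of either age. Both come from RefSeq (GRCm38.p6) and run 5′ to 3′ on the strand of the gene through the 250 bases before the start site. Capitals mark GC boxes (GGGCGG on either strand, the letters bound by Sp1) and AP-1 sites (TGANTCA on either strand). F3 is at chr3:121723287-121723536 on the plus strand and Tfpi at chr2:84476760-84477009 on the minus strand.
F3: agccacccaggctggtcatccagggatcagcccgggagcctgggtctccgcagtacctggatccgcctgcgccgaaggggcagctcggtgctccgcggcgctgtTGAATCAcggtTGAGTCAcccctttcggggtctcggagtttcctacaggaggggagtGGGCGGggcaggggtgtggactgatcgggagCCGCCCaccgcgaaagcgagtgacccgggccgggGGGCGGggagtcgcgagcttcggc
Tfpi: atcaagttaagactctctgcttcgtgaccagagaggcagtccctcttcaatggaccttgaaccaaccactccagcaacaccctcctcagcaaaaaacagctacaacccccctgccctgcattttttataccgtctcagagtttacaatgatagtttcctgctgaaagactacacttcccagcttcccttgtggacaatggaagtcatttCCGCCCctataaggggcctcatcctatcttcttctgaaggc
The F3 window was 70% G and C and held 3 GC boxes, which begin 89, 58 and 24 bases before the start, and 2 AP-1 sites, which begin 146 and 135 bases before it. The Tfpi window was 48.4% G and C and held 1 GC box, 41 bases before the start, and no AP-1 site. Of 32851 RefSeq promoter windows of 300 bases, from 250 before to 50 after the start, 35.7% held a GC box and 7.81% an AP-1 site. The first 116 bases of the F3 window overlap an exon of Gm43823, an annotated gene on the other strand whose status is to be tested by experiment. These matches are letters in a window and were not measured as binding. The last 16 bases of the Tfpi window overlap an exon that GENCODE gives to Tfpi itself. RefSeq has a second start site of Tfpi, whose window (chr2:84474125-84474424, minus strand) held 1 GC box, 159 bases before that start, and no AP-1 site. Windows were found for 6 of the 9 genes.

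Tfpi, on the minus strand of chromosome 2 (84432855 to 84476775), encodes tissue factor pathway inhibitor, which blocks factor Xa and the complex of tissue factor with factor VIIa. It measured 19.3, 21.9 and 26.7 CPM (lowest, median and highest) in 2-mo WT, 15.0, 17.6 and 21.4 CPM in HGPS and 18.4, 22.4 and 28.6 CPM in 24-mo WT. HGPS mice were at the low end, with 4 of 6 below all 2-mo WT mice, but the groups overlapped. The log2 difference was -0.31 against 2-mo WT (edgeR, SE 0.12, adjusted p = 0.0345) and -0.36 against 24-mo WT (SE 0.12, adjusted p = 0.0157), and 0.04 between the WT ages (adjusted p = 0.861). The call against 2-mo WT was lost when any of 6 mice was left out (HGPS 2, 3 or 5, or 2-mo WT 2, 3 or 4, adjusted p up to 0.0914). With the brown fat and skeletal muscle scores as covariates the estimate was -0.07 (adjusted p = 0.788), and the call was also lost without a count filter (adjusted p = 0.0549), in thinned libraries (0.0810), with the endothelial score (0.0558) and with the smooth muscle score (0.487). The call against 24-mo WT was lost with the fat and muscle scores (-0.20, adjusted p = 0.392) and with the smooth muscle score (-0.49, adjusted p = 0.365).

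Tfpi2 encodes a related inhibitor that is secreted into the matrix and blocks plasmin and other serine proteases, on the minus strand of chromosome 6 (3962595 to 3988919). It was close to the limit of detection, with 16 to 36 counts per mouse in HGPS (0.668 to 1.63 CPM, median 1.12), 7 to 18 counts in 2-mo WT (0.489 to 0.909 CPM, median 0.819) and 2 to 9 counts in 24-mo WT (0.108 to 0.646 CPM, median 0.236). None of the 24-mo WT mice reached 10 counts, so the gene was tested only through the 2-mo groups, where 6 HGPS and 5 WT mice did. HGPS and 24-mo WT did not overlap, though the closest mice of the groups had 0.668 and 0.646 CPM. The log2 difference between HGPS and 24-mo WT was 2.02 (edgeR, SE 0.34, adjusted p = 8.56e-05), that between 24-mo and 2-mo WT -1.34 (SE 0.35, adjusted p = 0.0177), and that between HGPS and 2-mo WT 0.68, with a 95% interval of 0.03 to 1.33 and an adjusted p of 0.0795. Over the alternative fits the difference between HGPS and 24-mo WT ran from 0.91 to 2.36, with adjusted p up to 0.527. With any 1 mouse left out it was 1.84 to 2.36. With every library thinned to 12413229 counts, the difference between the WT ages was -0.89 with an adjusted p of 0.173. Without 24-mo WT mice 1, 4 and 5 it was -1.02 with an adjusted p of 0.172. The difference between HGPS and 2-mo WT was called in thinned libraries (0.98, adjusted p = 0.0272), with these 2 groups alone (0.67, adjusted p = 0.0463) and without HGPS mouse 5 (0.80, adjusted p = 0.0424), and had the opposite sign with the smooth muscle score (-0.41, adjusted p = 0.853).

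Thbd encodes thrombomodulin, the endothelial receptor that binds thrombin, in 1 exon on the minus strand of chromosome 2 (148404466 to 148408188). Its levels were close in all groups, at 117, 140 and 155 CPM in 2-mo WT, 116, 126 and 147 CPM in HGPS and 103, 120 and 140 CPM in 24-mo WT. The ranges overlapped in every comparison. In HGPS against 2-mo WT the log2 difference was -0.09, with a 95% interval of -0.27 to 0.08 (edgeR, adjusted p = 0.376). In 24-mo against 2-mo WT it was -0.18 (adjusted p = 0.188).

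Procr, the endothelial protein C receptor on the plus strand of chromosome 2 (155751117 to 155755471), was widely spread among the 24-mo WT mice. It was 13.7, 24.2 and 27.2 CPM in 2-mo WT and 16.8, 21.3 and 29.1 CPM in HGPS. In 24-mo WT, mice 1, 4 and 5 had 6.45, 7.63 and 9.73 CPM and mice 2, 3 and 6 had 22.96, 21.7 and 15.8 CPM. Mice 1, 4 and 5 were below every mouse of the other groups, and mice 2 and 3 were within the range of both. Mouse 6 was below every HGPS mouse, and of the 2-mo WT mice only mouse 2 (13.7 CPM) was lower. In edgeR's test the log2 difference between 24-mo and 2-mo WT was -0.73 (SE 0.26, adjusted p = 0.0786) and that between HGPS and 24-mo WT 0.66 (SE 0.26, adjusted p = 0.0435). Between HGPS and 2-mo WT it was -0.07, with a 95% interval of -0.61 to 0.47 (adjusted p = 0.850).

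The mice low in Procr were also low in other endothelial RNA. The summed level of 10 endothelial markers, a list without Procr and Thbd, was 377, 416 and 502 CPM in 24-mo WT mice 1, 4 and 5 and 881 to 1156 CPM in mice 2, 3 and 6. In 2-mo WT mouse 2, which had the lowest Procr of its group, it was 502 CPM, against 822 to 1034 CPM in the other 5, and in HGPS it was 692 to 1022 CPM. None of the 10 markers was at 0 in a group, and none was called between the WT ages or between HGPS and 24-mo WT. In HGPS 2 of the 10 were higher than in 2-mo WT, as were 22% of all genes. Without 24-mo WT mice 1, 4 and 5 the Procr difference was -0.21 between the WT ages (adjusted p = 0.576) and 0.14 between HGPS and 24-mo WT (adjusted p = 0.610), and none of the 9 genes was called between the WT ages. With the endothelial marker score as a covariate and all mice kept, the Procr difference was -0.69 between the WT ages (adjusted p = 0.0239). Between HGPS and 24-mo WT it was 0.46 (adjusted p = 0.0711). The call between HGPS and 24-mo WT was lost when any of 11 single mice was left out (HGPS 1, 3, 4 or 5, 2-mo WT 3, 4, 5 or 6, or 24-mo WT 1, 4 or 5), with estimates of 0.50 to 0.68 and adjusted p up to 0.102. Between the WT ages the difference was called without 2-mo WT mouse 2 (adjusted p = 0.0466), 24-mo WT mouse 2 (0.0253) or 24-mo WT mouse 3 (0.0326). Thbd in the same low mice was 103 to 124 CPM, where the other mice had 115 to 155 CPM.

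**Figure D2:**
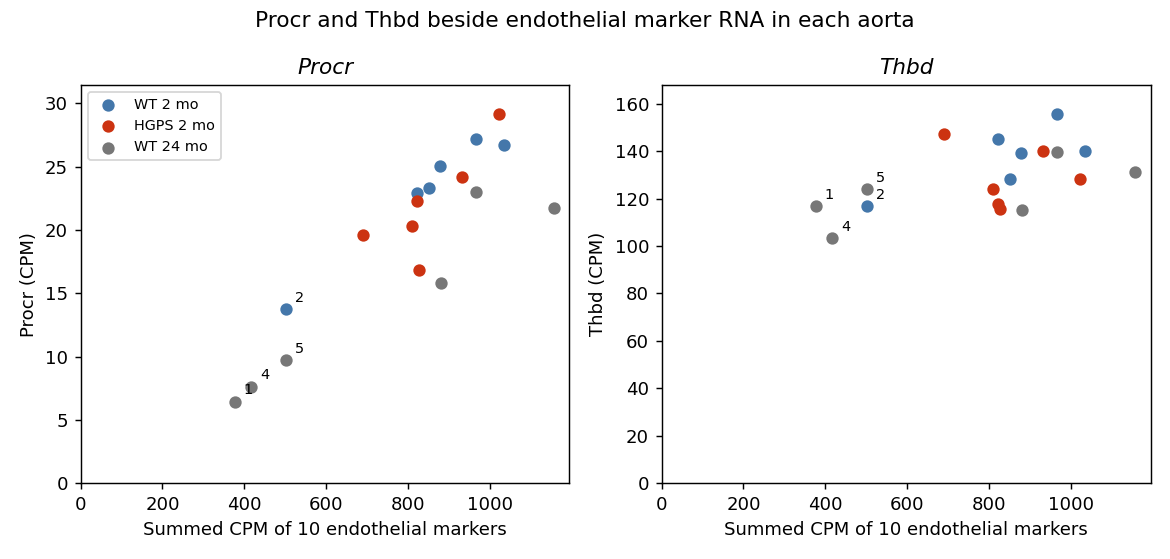
CPM of Procr (left) and Thbd (right) against the summed CPM of 10 endothelial markers, both axes linear from 0, with 1 point per mouse coloured by group. The numbered points are 24-mo WT mice 1, 4 and 5 and 2-mo WT mouse 2, which lie at 377 to 502 CPM of the markers and have the lowest Procr, whereas their Thbd is 103 to 124 CPM.

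Plat encodes tissue plasminogen activator, on the plus strand of chromosome 8 (22757727 to 22782844). It measured 105, 120 and 139 CPM in 2-mo WT, 141, 180 and 222 CPM in HGPS and 133, 155 and 181 CPM in 24-mo WT. Every HGPS mouse was above every 2-mo WT mouse, and 5 of 6 24-mo WT mice were too. The level was 1.47-fold higher in HGPS than in 2-mo WT (edgeR, log2 difference 0.56, SE 0.11, adjusted p = 0.000428) and 1.29-fold higher in 24-mo than in 2-mo WT (log2 difference 0.36, SE 0.11, adjusted p = 0.0342). The age difference lost its call when any of 6 mice was left out (2-mo WT 1, 3 or 4, or 24-mo WT 2, 3 or 5), with adjusted p up to 0.0817. HGPS and 24-mo WT differed by 0.20 (95% interval -0.03 to 0.43, adjusted p = 0.141).

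Plau, the urokinase activator on the plus strand of chromosome 14 (20836660 to 20843385), was the less abundant of the activators, with 8.11 CPM per kb in HGPS beside 28.6 for Plat. Its level was 8.52, 12.6 and 14.9 CPM in 2-mo WT, 16.9, 17.7 and 24.9 CPM in HGPS and 13.1, 17.3 and 18.6 CPM in 24-mo WT. HGPS and 2-mo WT did not overlap, and 5 of 6 24-mo WT mice were above all 2-mo WT mice. It was 1.55-fold higher in HGPS than in 2-mo WT (edgeR, log2 difference 0.63, SE 0.14, adjusted p = 0.00106). In DESeq2 this difference passed the study's cut-offs (0.64, adjusted p = 5.3e-05). Between the WT ages the difference was 0.43 (SE 0.14, adjusted p = 0.0501), just short of a call. It was called in DESeq2 (adjusted p = 0.0276), with upper-quartile scaling (0.0498) and with the replicate number as a block (0.0276). The endothelial (0.0430), fat and muscle (0.0308) and smooth muscle (0.0378) scores also gave a call. So did leaving out HGPS mouse 3, 2-mo WT mouse 1 or 2, or 24-mo WT mouse 4. It was not called in thinned libraries (0.32, adjusted p = 0.192) or without a count filter (adjusted p = 0.0761). RLE scaling (0.0511) and the 2 groups alone (0.0674) gave no call either. With the brown fat and skeletal muscle scores as covariates the difference of HGPS from 2-mo WT was 0.27 (adjusted p = 0.273), and that from 24-mo WT changed sign from 0.21 to -0.24, neither of these being called.

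Plaur encodes the receptor that holds urokinase at the cell surface, on the plus strand of chromosome 7 (24462484 to 24475968). It was 6.81 to 10.5 CPM in 2-mo WT, 6.41 to 12.8 CPM in HGPS and 7.58 to 12.99 CPM in 24-mo WT. The groups overlapped, with 3 of 6 24-mo WT mice and 2 of 6 HGPS mice above all 2-mo WT mice. The log2 difference was 0.15 in HGPS against 2-mo WT (95% interval -0.19 to 0.50, edgeR adjusted p = 0.477) and 0.20 in 24-mo against 2-mo WT (95% interval -0.15 to 0.55, adjusted p = 0.492), so the receptor was not called where its ligand Plau was. The difference between those genes was not tested.

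Serpine2 encodes protease nexin-1, a serpin that inhibits thrombin, urokinase and the tissue activator, on the minus strand of chromosome 1 (79794197 to 79861180). It was the most abundant of the 9 genes, at 880, 905 and 998 CPM in 2-mo WT, 990, 1137 and 1253 CPM in HGPS and 799, 854 and 1015 CPM in 24-mo WT. Of the HGPS mice, 5 of 6 were above every 2-mo WT mouse, and 5 of 6 were above every 24-mo WT mouse. The level was 1.22-fold higher than in 2-mo WT (edgeR, log2 difference 0.29, SE 0.07, adjusted p = 0.00192) and 1.29-fold higher than in 24-mo WT (0.37, SE 0.07, adjusted p = 0.000177). The WT ages differed by -0.08 (95% interval -0.22 to 0.06, adjusted p = 0.500).

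**Figure D3:**
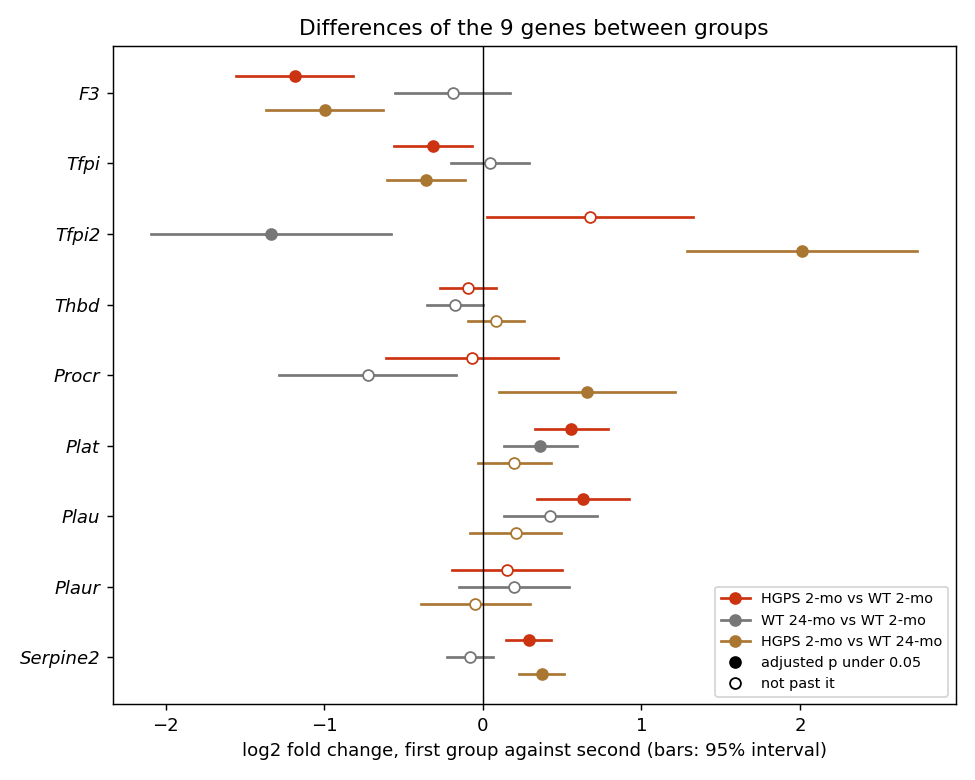
Log2 fold changes of the 9 genes in the 3 comparisons (horizontal axis, bars give the 95% interval of edgeR's fit), with filled points for an adjusted p under 0.05 and open points otherwise. F3 stands at -1.19 and -0.997 in the comparisons with HGPS and at -0.19 between the WT ages, and Plat and Plau lie above 0 in both comparisons with 2-mo WT.

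The wider list of coagulation and plasminogen genes held 43 other genes, of which 20 were tested and 23 had too few counts. The 23 are mostly plasma proteins that are made by the liver, and 4 of them had no count in any mouse. Plg, which encodes plasminogen, had 0 to 3 counts per mouse. Of the 20, 6 were higher and 2 lower in HGPS than in 2-mo WT, 2 were higher and 3 lower in 24-mo than in 2-mo WT, and 8 were higher and 4 lower in HGPS than in 24-mo WT. Of all genes tested, 22% were higher and 21.2% lower in the first of these comparisons, 6.29% and 5.38% in the second and 23.8% and 23.6% in the third. The median log2 fold change of the 20 was 0.02, -0.02 and 0.16 in these comparisons.

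Among the receptors and surface binding proteins, 10 of 11 genes were tested, and 4 were higher and none lower in HGPS than in 2-mo WT, against 22% and 21.2% of all genes. F2r, which encodes the thrombin receptor PAR1, was 111 to 123 CPM in 2-mo WT, 148 to 185 CPM in HGPS and 67.9 to 105 CPM in 24-mo WT. No groups overlapped, with HGPS highest and 24-mo WT lowest. The log2 difference was 0.47 between HGPS and 2-mo WT (edgeR, SE 0.09, adjusted p = 0.0003), -0.45 between 24-mo and 2-mo WT (SE 0.09, adjusted p = 0.00186) and 0.93 between HGPS and 24-mo WT (SE 0.09, adjusted p = 1.43e-07).

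S100a10, the partner of annexin A2 in a complex that binds plasminogen and its tissue activator at the cell surface, showed the same order without overlap. It was 69.5 to 94.3 CPM in 2-mo WT, 108 to 141 CPM in HGPS and 46.2 to 68.0 CPM in 24-mo WT. The log2 differences were 0.59 (edgeR, SE 0.09, adjusted p = 6.52e-05), -0.61 (SE 0.09, adjusted p = 0.000214) and 1.20 (SE 0.10, adjusted p = 1.46e-08) in the same order of comparisons.

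Of the coagulation factors and fibrinogen chains, 4 of 16 genes were tested. Among these, 1 was higher and none lower in HGPS than in 2-mo WT, against 22% and 21.2% of all genes. F13a1 encodes the A chain of factor XIII, which cross-links fibrin and is known to be made by macrophages. It was 122 to 178 CPM in 2-mo WT, 220 to 274 CPM in HGPS and 115 to 224 CPM in 24-mo WT. HGPS and 2-mo WT did not overlap, and the difference of 0.76 (edgeR, SE 0.14, adjusted p = 0.000255) went with the higher macrophage markers given above, whose part in it was not tested. Vwf, von Willebrand factor of the endothelium, was 155 to 499 CPM in 2-mo WT, 278 to 346 CPM in HGPS and 178 to 402 CPM in 24-mo WT, and it was not called in any comparison (adjusted p of 0.743, 0.433 and 0.481).

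Among plasminogen and its inhibitors, 1 of 5 genes was tested. Serpini1, neuroserpin, an inhibitor of the tissue activator, was 80.7 to 112 CPM in 2-mo WT and 77.6 to 97.6 CPM in HGPS but 117 to 203 CPM in 24-mo WT. Both 2-mo groups lay below all 24-mo WT mice. The log2 difference was 0.80 between the WT ages (edgeR, SE 0.12, adjusted p = 0.00014), -0.77 between HGPS and 24-mo WT (SE 0.12, adjusted p = 3.77e-05) and 0.04 between HGPS and 2-mo WT (adjusted p = 0.839).

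Anticoagulants and inhibitors gave 2 of 8 genes tested. Pros1, which encodes protein S, the cofactor of activated protein C, was 135 to 155 CPM in 2-mo WT, 116 to 145 CPM in HGPS and 118 to 164 CPM in 24-mo WT. The groups overlapped, and no comparison was called, with the smallest adjusted p of 0.0685 between HGPS and 24-mo WT. The vitamin K genes, which serve the carboxylation of clotting factors and protein S, had 3 of 3 tested. Of these, 1 was higher and 1 lower in HGPS than in 2-mo WT, against 22% and 21.2% of all genes.

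**Figure D4:**
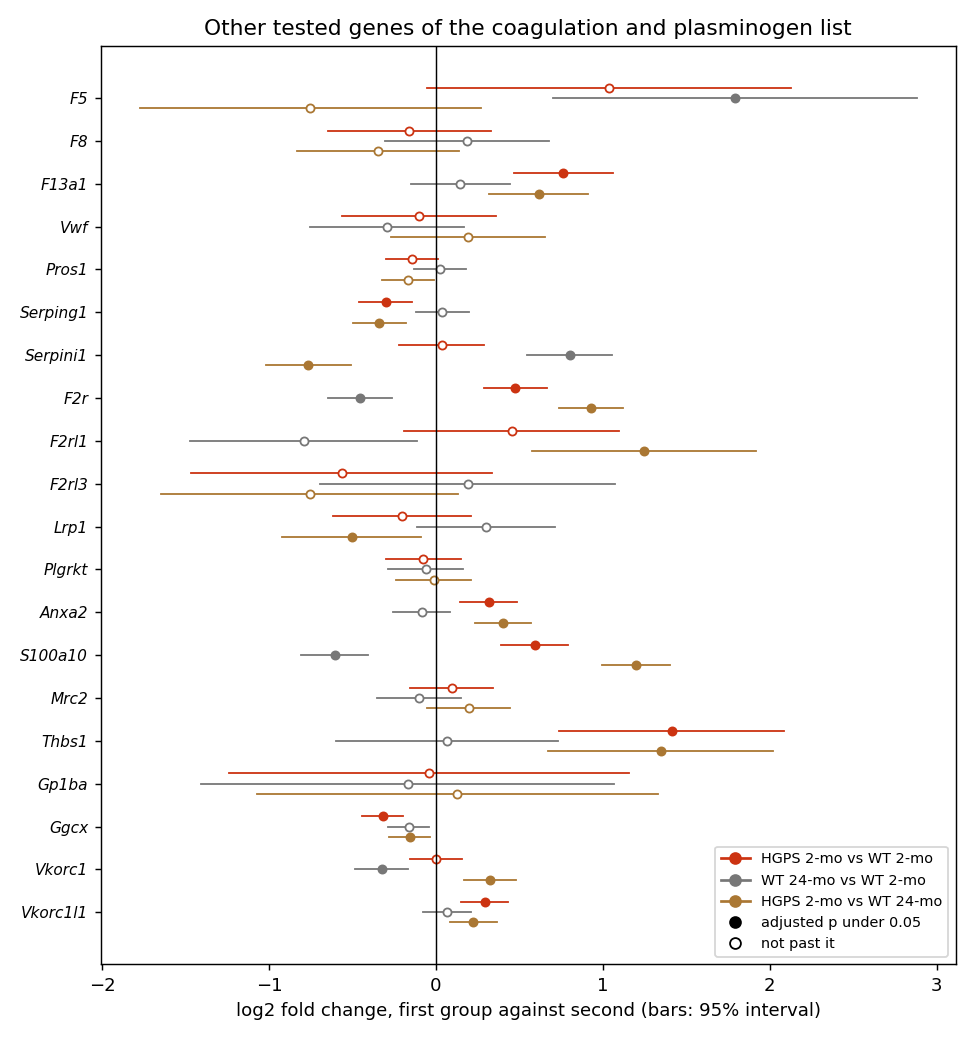
Log2 fold changes of the 20 tested genes of the wider list in the 3 comparisons (horizontal axis, bars give the 95% interval of edgeR's fit), ordered by role from clotting factors at the top to vitamin K genes at the bottom, with filled points for an adjusted p under 0.05. F2r and S100a10 lie above 0 in both comparisons with HGPS and below 0 between the WT ages, and Serpini1 is at 0.80 between the WT ages.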

How the data were processed

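The authors assigned paired-end reads of ribosomal RNA-depleted, stranded libraries to GENCODE M23 transcripts (GRCm38.p6) with salmon and summed them per gene with tximport. The submitters' processing notes also name Bowtie 0.12.2. The deposited values are estimated counts in whole numbers, without normalization. Symbols, positions and exon lengths came from GENCODE M21 of the same assembly, which held 54107 of the 54281 identifiers, and no exon of another gene overlapped those of the 9 genes.

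After TMM scaling, 1 quasi-likelihood fit in edgeR 4.0.16 (R 4.3.3) covered the 3 groups, with 15 residual degrees of freedom and Benjamini-Hochberg adjustment over 15210 genes. Standard errors were derived from the log2 estimate and its F statistic, and 95% intervals are not adjusted for the number of genes. The fit was tested on simulated data. Replicates differed by more than sampling noise (chi-square per degree of freedom 8.09 or above for every pair), so each counts once. Mice are separate animals, and litters and batches are not given in the sources used here.

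The 9 genes, the list of 43 and the marker lists were chosen with earlier results of these data known. Text on the list of 43 names Vwf, Pros1, F2r and Plg, and in each comparison up to 6 genes past 1.5-fold and adjusted p under 0.001 with the largest changes. A further gene that this rule names is not reported here, and the closing observations name other called genes of the list without values, after their values were seen. Marker scores average log2 CPM over a list (prior count 2). Alternatives were DESeq2 1.42.0, RLE and upper-quartile scaling, no count filter, the replicate number as a block, the compared groups alone, thinned libraries, marker scores as covariates and each mouse left out. The smooth muscle covariate and the fit without 24-mo WT mice 1, 4 and 5 were chosen after seeing the data.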

Additional observations from a re-analysis of the deposited data

Results flagged for a closer look

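Values of the 9 genes and of the 6 tested genes named from the wider list were examined for a mouse apart from its group of 6, by the gap to its nearest neighbour as a share of the group's range. Of 45 groups, 3 held a mouse past the critical share of 0.625, and chance flags about 1 in 20 groups. Procr in 2-mo WT mouse 2 was 13.7 CPM against 22.9 to 27.2 CPM in the other 5 mice (share 0.747). Vwf in the same mouse was 155 CPM against 324 to 499 CPM (share 0.631), and its endothelial markers summed to 502 CPM. Without that mouse Procr was called lower in 24-mo than in 2-mo WT (log2 difference -0.84, edgeR adjusted p = 0.0466). Serpini1 in HGPS mouse 6 was 77.6 CPM against 95.1 to 97.6 CPM in the other HGPS mice (share 0.887).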

How the results depend on the processing

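Between HGPS and 2-mo WT the 5 calls among the 9 genes became 3 with the brown fat and skeletal muscle scores as covariates and 0 with the smooth muscle score, which also left 0 of the 8 calls of the wider list. The smooth muscle score did not overlap between these groups, and standard errors of the 5 genes were larger with it. Estimates were also larger in size for F3 (-1.46, SE 0.40), Plat (0.76, SE 0.25), Serpine2 (0.50, SE 0.14) and Tfpi (-0.44, SE 0.27). That of Plau was smaller (0.29, SE 0.30). Of all genes tested, the 3340 higher and 3227 lower became 1562 and 1555 with the fat and muscle scores. They became 98 and 37 with the smooth muscle score. Tfpi lost and Tfpi2 gained a call in further fits, given with these genes. The 1 gene past the study's cut-offs became 2 (F3 and Plau) in DESeq2, without a count filter and with the replicate block. The number became 0 with either set of scores. With a mouse left out it was 1 to 2. It was 2 (F3 and Plat) without HGPS mouse 4 or 6 or 2-mo WT mouse 5 or 6. Without 2-mo WT mouse 1 it was also 2 (F3 and Plau). At these cut-offs, 801 genes higher and 644 lower became 1144 and 779 in DESeq2. They became 863 and 628 without a count filter and 677 and 588 with the block. With the fat and muscle scores they became 131 and 130, and with the smooth muscle score 4 and 0. Between the WT ages the 2 calls became 4 in DESeq2 and with the endothelial score, 1 without a count filter and in thinned libraries, 0 without 24-mo WT mice 1, 4 and 5, and 1 to 4 with a mouse left out (4 without 2-mo WT mouse 2, 1 without 2-mo WT mouse 3 or 4 or 24-mo WT mouse 5). Between HGPS and 24-mo WT the 5 calls became 3 with the fat and muscle scores and 1 with the smooth muscle score, the 2 genes past the study's cut-offs became 0 with either and without those 3 mice, and the 12 calls of the wider list became 8 and 2. The cause was not tested.

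Signs changed in the following fits, in none of which the gene was called. With the fat and muscle scores these were Thbd (0.0027), Procr (0.37) and Vwf (0.18) between HGPS and 2-mo WT, and Plau (-0.24) and Plaur (0.093) between HGPS and 24-mo WT. With the smooth muscle score they were Plaur (-0.24), Tfpi2 (-0.41), Procr (0.27) and Vwf (0.43) in the first and Plau (-0.16) in the second. With the endothelial score they were Serpini1 (-0.0095) in the first and Vwf (-0.035) in the second. Without the 3 mice Vwf was 0.072 between the WT ages and -0.17 between HGPS and 24-mo WT. With a mouse left out, Vwf ranged from -0.25 to 0.037 and Serpini1 from -0.00044 to 0.10 between HGPS and 2-mo WT, Tfpi from -0.029 to 0.10 and Pros1 from -0.013 to 0.077 between the WT ages, and Plaur from -0.15 to 0.047 between HGPS and 24-mo WT.

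Mice of the same number are different animals. Their deviations correlated above 0.1 in 2 of 18 same-number pairs (-0.162 to 0.172) and in 11 of 90 different-number pairs (-0.226 to 0.288). The numbers therefore gave no sign of pairing. With the replicate block, Tfpi was not called between HGPS and 2-mo WT (edgeR adjusted p = 0.0683), Plau was called between the WT ages (0.0276) and Procr was not called between HGPS and 24-mo WT (0.0627), with no other call among the 9 genes changed. The depth limits Tfpi2, with 2 to 36 counts per mouse.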

Other observations

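Ratios of counts between partners, chosen after their values were seen and given as a description, do not depend on the scaling of the libraries. The count of F3 to that of its inhibitor Tfpi was 5.32 to 8.26 in 2-mo WT (median 6.42), 2.69 to 4.61 in HGPS (median 3.59) and 3.40 to 10.7 in 24-mo WT (median 4.98). Every HGPS mouse was below every 2-mo WT mouse. The count of Plat to that of Serpine2 was 0.118 to 0.155 in 2-mo WT, 0.143 to 0.189 in HGPS and 0.161 to 0.197 in 24-mo WT, where all 24-mo WT mice were above all 2-mo WT mice. The count of Plau to that of its receptor Plaur overlapped in all groups, with medians of 1.57, 2.03 and 1.72.

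Other genes of the wider list that were called were Thbs1, Anxa2 and Vkorc1l1 (higher) and Serping1 and Ggcx (lower) in HGPS against 2-mo WT, and F5 (higher) and Vkorc1 (lower) in 24-mo against 2-mo WT, and F2rl1 (higher) and Lrp1 (lower) were called only between HGPS and 24-mo WT. They are named after their values were seen. Of the platelet and megakaryocyte markers, 0 of 5 were called between HGPS and 2-mo WT by edgeR, and 1 of 5 was higher in 24-mo than in 2-mo WT. Mesothelial markers summed to 9.15 to 25.2 CPM in HGPS, 0.592 to 31.5 CPM in 2-mo WT and 0.493 to 29.0 CPM in 24-mo WT. The liver markers reached at most 2.59 CPM summed in a mouse and were not tested. Nerve markers were higher in 24-mo than in 2-mo WT in 3 of 3 tested genes. Fibroblast markers were lower in 5 of 8 and skeletal muscle markers higher in 1 of 4 in that comparison. Of all genes tested, 6.29% were higher and 5.38% lower between these ages. Between HGPS and 2-mo WT 22% were higher and 21.2% lower.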
